A study of Homo sapiens with 6 samples.

Results

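The siRNAs described here target 13 AMPK-related kinases, SIK1 to SIK3, MARK1 to MARK4, NUAK1, NUAK2, BRSK1, BRSK2, SNRK and HUNK, in a screen of 939 library siRNA wells. They were chosen by gene family, as the library wells whose locus identifier is that of one of the 13 genes, and all 13 genes were found, with 1 well each. The rule uses no measured value. No siRNA of the 13 was on a further well, and the sequences of the library siRNAs were not used here. The file lists 6 of the genes under older symbols. NUAK1 appears as ARK5, NUAK2 as SNARK, SIK1 as SNF1LK, SIK3 as KIAA0999, BRSK1 as KIAA1811 and BRSK2 as STK29.

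The cells were SUM149PT, a line established from an inflammatory breast cancer of the triple-negative type, so each result is from 1 cell line. One group of 3 samples was treated with eicosapentaenoic acid (EPA), an omega-3 fatty acid, at 50 µM for 72 hours, and the other group of 3 samples was untreated. Both groups had been transfected with 45 nM siRNA in multiwell plates 48 hours earlier, at 750 cells per condition. Living cells were read by their conversion of resazurin to a fluorescent product, and the deposited value is the raw fluorescence intensity of a well. The screen looked for a druggable kinase whose loss complements the action of EPA. Nothing in the labels says that the 3 samples of a group were separate cultures, so p-values cover the spread among these samples alone, and that spread may be technical. The extent of knockdown was not analysed here.

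These kinases are the close relatives of AMPK, the energy-sensing kinase. Most of them are switched on by LKB1, a tumour suppressor kinase encoded by STK11, which phosphorylates their activation loop. SIKs hold CRTC coactivators and class IIa histone deacetylases in the cytoplasm and are inhibited by protein kinase A. MARKs phosphorylate microtubule-associated proteins such as tau and take part in cell polarity, and BRSKs set up the polarity of neurons in mice.

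EPA lowered the signal of control wells and acted unevenly over the plate. OTP3, the negative control siRNA, averaged 24974 ± 2908 units with EPA and 49202 ± 1292 units untreated (SD, n = 3 each), so 50.8% ± 3.50 (SE) of its signal was left (two-sided exact permutation p = 0.1, and groups of 3 cannot reach a smaller one). Blank wells read 3888 ± 28.9 with EPA and 3738 ± 40.5 untreated, and TOX, the positive control siRNA, had medians of 3834 ± 123 with EPA and 4539 ± 277 untreated. The median library well read 13565 ± 1404 with EPA and 22991 ± 1184 untreated. In the row that holds most members, row 7, the percentage of OTP3 signal left was 35.3% on plate 2 and 37.0% on plate 3, and that of cells without siRNA was 37.2% on plate 2 and 33.1% on plate 3.

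Plate positions were shared among the members. MARK2, SIK3, MARK3, MARK4 and BRSK1 lay in row 7 of plate 2, and SIK2, NUAK2 and SIK1 in row 7 of plate 3, so 8 of 13 members shared a row number. Library wells of row 7 other than the members were low without EPA, with log2 medians of -0.59 on plate 2 and -0.92 on plate 3 relative to the library of the plate. Ranked among the 16 rows with the members included, row 7 was the lowest without EPA on plate 3 and 3 from the lowest on plate 2. HUNK (row 16) and MARK1 (column 24) were edge wells. SNRK, BRSK2 and NUAK1 lay in rows 9, 13 and 15. Plate position was therefore tried as an alternative by median polish, which removes row and column medians from each plate. The polished value is given beside the calls it ends. Members counted in these medians, beside 15 other library wells in row 7 of plate 2 and 17 on plate 3. Median polish can therefore also remove part of a difference that members of row 7 share. In raw fluorescence without EPA, all 8 members in row 7 were lowest in replicate 2 and highest in replicate 1, as were 49.4% and 50.3% of all library wells. On the plate scale that order did not hold for SIK1, MARK2 and MARK3.

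For tests, the fluorescence of a well was expressed as the log2 of its ratio to the library median of the same plate and sample. A value of 0 is thus the typical library siRNA, and -1 is a signal 2 times weaker. limma was fitted to all 939 wells with Benjamini-Hochberg adjustment over all of them, and a call means an adjusted p under 0.05.

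Without EPA the siRNAs against SIK2 and MARK4 gave the lowest signals of the family, and those against BRSK2 and NUAK1 the highest. In limma's test 7 of the 13 members were lower than the library median and 4 were higher. Of all library wells, 35.6% were called lower and 33.9% higher, and the median member stood at -0.47 on the log2 scale, beside -0.0060 for all library wells. The lower calls and the row went together: 7 of the 8 members in row 7 were called lower, and 0 of the 5 elsewhere. The members in row 7 had a median of -0.52, and the members elsewhere a median of 0.55. After median polish 1 member was lower, MARK4, and 5 were higher (SIK1, SNRK, NUAK1, BRSK2 and BRSK1). Of all library wells, 27.6% were lower and 26.5% higher after the polish. Set against the OTP3 median of the plate, the lowest member, SIK2, stood at 21.7% ± 1.52 with EPA and 16.8% ± 6.01 untreated (SD, n = 3 each). The highest, BRSK2, stood at 149.5% ± 15.1 with EPA and 86.9% ± 4.40 untreated (SD, n = 3 each). The blank was not subtracted from these percentages. With EPA the SIK2 wells read 4253 ± 103 units, beside 3886 units in the blank wells of their plate. Group means were below OTP3 in 9 of 13 members with EPA and in all 13 untreated. With OTP3 as the centre of the fit, 9 members were lower and 3 higher with EPA, and 12 were lower and 0 higher untreated. Of all library wells, that centre gave 64.7% lower and 13.5% higher with EPA, and 91.8% lower and 0.53% higher untreated.

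Among the salt-inducible kinases, SIK2 stood apart by its low signal. SIK2 wells (locus 23235) read 4187, 4201 and 4372 units in EPA replicates 4 to 6, against 10879, 4985 and 7075 units in untreated replicates 1 to 3. All 3 EPA values lay below all 3 untreated values, and they were 260 to 501 units above the blank wells of the plate. Relative to the library median SIK2 was at -1.46 untreated (SE 0.153, limma adjusted p = 1.60e-05), rank 54 from the lowest of 939. With EPA it was at -1.43 (adjusted p = 1.30e-05), rank 46. Median polish brought the untreated value to -0.28, which did not pass (adjusted p = 0.0716), and the value with EPA to -0.46, which did (adjusted p = 0.00523).

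SIK1, which is induced by cAMP signalling, was higher than the library median with EPA. Its wells (locus 150094) read 20579, 13180 and 14537 units with EPA and 24413, 22233 and 22285 units untreated, without overlap. It was at 0.47 from the library median with EPA (SE 0.123, adjusted p = 0.00559) and at 0.19 untreated (adjusted p = 0.179), where median polish gave 0.56 (adjusted p = 0.00103). SIK3 wells (locus 23387) read 20095, 12048 and 10355 units with EPA, against 21031, 14381 and 16041 units untreated. The SIK3 groups overlapped. SIK3 was at -0.12 with EPA (adjusted p = 0.405) and at -0.53 untreated (adjusted p = 0.00317), and median polish moved the untreated value to 0.091 (adjusted p = 0.494). The 3 SIK wells thus spanned from -1.46 (SIK2) to 0.19 (SIK1) without EPA. SIK1 and SIK2 shared both plate and row, and no sample of SIK2 reached the lowest sample of SIK1 in either group.

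Among the MARK kinases MARK4 was lowest. MARK4 wells (locus 57787) read 7608, 6740 and 8727 units with EPA, against 13691, 7042 and 10058 units untreated. The groups overlapped, with untreated replicate 2 at the level of the EPA samples. MARK4 was at -0.95 with EPA (SE 0.168, adjusted p = 0.000482) and at -1.31 untreated (adjusted p = 6.85e-05). It was the only member whose untreated lower call remained after median polish, at -0.55 (adjusted p = 0.00386), and it passed there in each of the 13 alternatives run for that comparison. The value with EPA did not pass after median polish (-0.28, adjusted p = 0.101).

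MARK2 and MARK3, which sat 2 columns apart in the same row as MARK4, were close to each other. MARK2 wells (locus 2011) read 23071, 13838 and 14112 units with EPA and 21310, 12130 and 20250 units untreated. MARK3 wells (locus 4140) read 21287, 10821 and 11999 units with EPA and 21511, 13275 and 19401 units untreated. In both genes the groups overlapped, and EPA replicate 4 was about as bright as the brightest untreated sample. Untreated, MARK2 was at -0.50 (adjusted p = 0.0116) and MARK3 at -0.47 (adjusted p = 0.015), and after median polish neither passed (adjusted p = 0.371 and 0.946). Nor did they pass without untreated replicate 2, at -0.28 and -0.31 (adjusted p = 0.116 and 0.133). With EPA they were at 0.16 and -0.071 (adjusted p = 0.325 and 0.667).

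MARK1 was the bright member of its family, in an edge well. Its wells (locus 4139) read 30284, 26889 and 23198 units with EPA, against 33143, 32486 and 32683 units untreated, without overlap. It was at 0.85 with EPA (SE 0.0888, adjusted p = 1.04e-05) and at 0.42 untreated (adjusted p = 0.00183). After median polish it was at -0.24 with EPA (adjusted p = 0.069) and at -0.068 untreated (adjusted p = 0.624), and passed in neither group. The other library wells of its column had a median of 0.99 with EPA and 0.41 untreated.

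The NUAK kinases, of which NUAK1 phosphorylates a regulatory subunit of myosin phosphatase, differed from each other. NUAK1 wells (locus 9891) read 37217, 29220 and 28096 units with EPA, against 43871, 42957 and 43246 units untreated. NUAK2 wells (locus 81788) read 13589, 14311 and 10483 units with EPA, against 16148, 11886 and 15475 units untreated. Every NUAK1 value lay above every NUAK2 value, but the wells were on different plates and rows. NUAK1 was at 1.06 with EPA (SE 0.0784, adjusted p = 9.34e-07) and at 0.85 untreated (adjusted p = 7.22e-06), and both passed after median polish, at 0.91 with EPA and 0.44 untreated. NUAK2 was at 0.15 with EPA (adjusted p = 0.233) and at -0.48 untreated (adjusted p = 0.00273). Median polish turned the untreated NUAK2 value to 0.15 (adjusted p = 0.368).

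BRSK2 gave the highest signal of the family relative to the library. Its wells (locus 9024) read 28958, 30675 and 28306 units with EPA, against 42105, 33825 and 42278 units untreated, without overlap. BRSK2 was at 1.36 with EPA (SE 0.0785, adjusted p = 2.03e-07), rank 886 from the lowest, and at 0.97 untreated (adjusted p = 3.04e-06). After median polish it still passed, at 0.66 with EPA and 0.50 untreated. BRSK1 wells (locus 84446) read 20862, 14409 and 14695 units with EPA, against 20357, 10443 and 17040 units untreated, and overlapped. BRSK1 was at 0.15 with EPA (adjusted p = 0.355) and at -0.68 untreated (adjusted p = 0.00209). Median polish turned the untreated value to 0.36, which passed in the higher direction (adjusted p = 0.0265).

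SNRK, a further kinase activated by LKB1, kept the smallest share of its raw signal with EPA. SNRK wells (locus 54861) read 8364, 12224 and 11201 units with EPA, against 23812, 18065 and 27177 units untreated, without overlap. It was at -0.13 with EPA (SE 0.142, adjusted p = 0.429) and at 0.18 untreated (adjusted p = 0.282), where median polish gave 0.43 (adjusted p = 0.00509). HUNK, first found in mouse mammary tumours that carry the Neu oncogene, was bright in its edge well. Its wells (locus 30811) read 26263, 27648 and 29274 units with EPA, against 32389, 36702 and 36784 units untreated, without overlap. HUNK was at 0.88 with EPA (SE 0.099, adjusted p = 1.72e-05) and at 0.55 untreated (adjusted p = 0.000671). Median polish gave -0.35 with EPA, a call in the lower direction (adjusted p = 0.0179), and -0.27 untreated (adjusted p = 0.0673). The other library wells of row 16 on that plate had medians of 0.82 with EPA and 0.65 untreated.

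With EPA, 2 of the 13 members were called lower than the library median, SIK2 and MARK4, and 5 higher, BRSK2, NUAK1, HUNK, MARK1 and SIK1. Of all library wells, 37.0% were lower and 36.4% higher. The median member stood at 0.15, beside 0.035 for all library wells. After median polish 2 were lower, SIK2 and HUNK, and 6 higher, SIK1, MARK2, NUAK1, NUAK2, BRSK1 and BRSK2. The polish left 30.4% of all library wells lower and 30.6% higher. In order of level with EPA, SIK2 and MARK4 came first and did not overlap on the plate scale with any sample of the 5 higher members. MARK3, SIK3, SNRK, NUAK2, BRSK1 and MARK2 lay between -0.13 and 0.16 and overlapped one another.

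The synthetic lethal comparison is EPA-treated minus untreated on the plate scale. A negative value there means that the siRNA lost more signal with EPA than the library median of its plate did. The median difference of the library wells was itself 0.20, so 0 is not the typical difference. No member was lower in limma's test (0 of 13 members, 0 at an unadjusted p under 0.05, beside 15.2% of all library wells). The members BRSK1, MARK2, NUAK2, MARK1 and BRSK2 were higher, which is 5 of 13 where 29.0% of all library wells were called higher. The median member was at 0.39, and the median of all library wells at 0.20. The difference was above 0 in 12 of the 13 members and in 62.5% of the library wells.

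BRSK1 had the largest difference, at 0.83 (SE 0.207, 95% interval 0.37 to 1.29, adjusted p = 0.0101), rank 902 of 939 from the lowest. On the plate scale it was at 0.21, 0.040 and 0.22 with EPA, against -0.39, -1.14 and -0.49 untreated, without overlap. In raw signal 104% ± 23.2 (SE) was left with EPA. OTP3 wells of the same row kept 35.3%, and the median library well kept 68.6%. MARK2 was at 0.66 (SE 0.207, adjusted p = 0.0262), with 95.03% ± 22.9 of its signal left. NUAK2 was at 0.63 (SE 0.154, adjusted p = 0.00915), with 88.2% ± 11.4 left. MARK1 was at 0.44 (SE 0.126, adjusted p = 0.0185) with 81.8% ± 6.26 left, and BRSK2 at 0.39 (SE 0.111, adjusted p = 0.017) with 74.4% ± 5.56 left. Median differences of the other library wells in the same row and column were 0.17 and 0.26 for BRSK1. They were 0.17 and -0.12 for MARK2, and 0.44 and 0.087 for NUAK2. For MARK1 they were -0.033 and 0.68, and for BRSK2 0.16 and 0.41.

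These higher calls changed with median polish or with the centring, and those of MARK2, MARK1 and BRSK2 also with the samples used. The cause was not tested. After median polish MARK2 alone was still higher (0.63, adjusted p = 0.00368), where 16.3% of all library wells were called higher. BRSK1 (0.41), NUAK2 (0.50) and BRSK2 (0.16) no longer passed there, and MARK1 stood at -0.17 (adjusted p = 0.105, 0.0594, 0.528 and 0.409). The MARK2 call was lost without EPA replicate 4 (adjusted p = 0.0727), without EPA replicate 6 (0.0672) and without untreated replicate 2 (0.0881). The MARK1 call was lost without EPA replicate 5 (0.0585) or untreated replicate 1 (0.0555), and the BRSK2 call without EPA replicate 6 (0.0504) or untreated replicate 2 (0.0662). The BRSK1 and NUAK2 calls remained with each replicate left out in turn (limma adjusted p up to 0.0407 and 0.0363). With each plate's differences centred on their own median siRNA, 1 member was higher, BRSK1, and with OTP3 as the centre 11 were higher. Of all library wells, 14.0% were higher with the centred differences and 58.1% with OTP3 as the centre.

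The other 8 members did not pass. SIK3 was at 0.42 (adjusted p = 0.0777), MARK3 at 0.40 (0.138), MARK4 at 0.36 (0.235), HUNK at 0.34 (0.0738), SIK1 at 0.27 (0.224) and NUAK1 at 0.21 (0.143). SNRK, at -0.31 (SE 0.201, adjusted p = 0.236), was the one member below 0, with a 95% interval of -0.75 to 0.14. On the plate scale SNRK was at -0.53, 0.037 and 0.11 with EPA, against 0.15, -0.013 and 0.39 untreated, so the groups overlapped. Its raw signal left was 46.0% ± 7.31, the lowest of the family. OTP3 wells of its row kept 34.6%, and the lower quartile of the library wells was 51.6%. The other library wells of its row and of its column had median differences of -0.074 and 0.28. In this fit, without blank subtraction, the 95% interval of the difference lay above -1 in all 13 members. The blank level bounds how negative a difference can be, most of all for SIK2 and MARK4, the lowest members untreated. For these 2 the interval does not show that a larger loss was absent.

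SIK2 was at 0.038 (SE 0.216, adjusted p = 0.894), with a 95% interval of -0.44 to 0.52. On the plate scale its EPA values were -1.52, -1.50 and -1.25, and its untreated values -0.98, -1.87 and -1.55, so untreated replicate 1 alone lay above the EPA samples. This value depends on the background. After blank subtraction SIK2 was at -1.39 (adjusted p = 0.0701), and 9.42% of its blank-subtracted signal was left with EPA, against 55.6% ± 12.6 of its raw signal. All 3 EPA values of SIK2 were within 3 SDs of the blank wells, where a further loss cannot be read, and so were replaced by that floor in the blank-subtracted fit. No other member value was within 3 SDs of the blank with EPA.

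Raw signal left with EPA ran from 46.0% (SNRK) to 104% (BRSK1), with a median member at 78.6%. The middle of the library wells ran from 51.6% (lower quartile) through 68.6% (median) to 84.2% (upper quartile). The raw EPA values lay below all untreated values in 7 of 13 members, and did so in 61.7% of library wells. On the plate scale the EPA values lay above all untreated values in 8 of 13 members, against 36.0% of library wells, and below them in 0, against 18.8%.

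The standard errors come from 1 well position per siRNA, so differences between positions and plates do not enter them. The 13 library siRNAs that were on 2 wells, none of them a member, differed between their wells by a median of 0.37 in the EPA-minus-untreated difference, with a range of 0.026 to 0.71. For the untreated level that gap had a median of 0.56 and reached 1.34. The median standard error of the members was 0.18 for the difference and 0.12 for the untreated level. A gap between 2 wells is not the same measure as a standard error, and it can also hold differences of plate and position.

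Genes that act around these kinases were read in the same fit. Their counts stand beside the shares of all library wells called lower and higher, which were 15.2% and 29.0% in EPA-treated minus untreated, 37.0% and 36.4% with EPA, and 35.6% and 33.9% untreated. Of 14 genes of LKB1, its partners and AMPK, 9 had a well. In EPA-treated minus untreated 3 were lower and 1 higher, with a median of -0.44. PRKAA1, a catalytic subunit of AMPK, was at -0.95 (SE 0.143, adjusted p = 0.00108), with wells at 9373 ± 1744 units with EPA and 29962 ± 3533 units untreated (SD, n = 3 each). STRADB and STRADA, the pseudokinases that hold LKB1 in its active form, were at -0.74 (adjusted p = 0.00419) and -0.50 (adjusted p = 0.017). PRKAG3, a regulatory AMPK subunit, was higher at 0.66 (adjusted p = 0.0101). STK11 itself was at 0.21 (adjusted p = 0.277). With OTP3 as the centre this list had 0 lower and 3 higher, and after median polish 2 lower and 1 higher. Of all library wells, that centre gave 6.28% lower and 58.1% higher, and median polish 14.8% and 16.3%. After the polish PRKAA1 stood at -0.39 (adjusted p = 0.0714) and STRADA at -0.41 (adjusted p = 0.0588), which did not pass. The 2 lower wells were then STRADB at -0.46 (adjusted p = 0.0472) and CAMKK1 at -0.74 (adjusted p = 0.00702), which without the polish stood at -0.57 and did not pass (adjusted p = 0.0729). Relative to the library median, 7 of the 9 were lower with EPA and 0 higher, with CAMKK1 at -1.65 and STK11 at -0.97, and 4 were lower and 2 higher untreated, with PRKAG3 at -1.56 and STK11 at -1.18.

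All 14 listed kinases reported to act on SIK or MARK kinases had a well, 16 wells in all since AKT1 and TAOK2 had 2. In EPA-treated minus untreated 3 wells were lower and 1 higher, with a median of 0.13. Both TAOK2 wells were lower, at -0.99 (SE 0.163, adjusted p = 0.00162) on plate 2 and -0.45 (SE 0.119, adjusted p = 0.0128) on plate 3. The TAOK2 well on plate 3 was an edge well, in row 1. TAOK1 is known to phosphorylate the MARK activation loop. TAOK1 and TAOK3 were at 0.52 and 0.41 (adjusted p = 0.165 and 0.0703). GSK3B, a kinase reported to act on MARK2, was lower at -0.71 (adjusted p = 0.00362) in an edge well. PRKCI, an atypical protein kinase C that phosphorylates MARK2 and MARK3, was higher at 1.06 (SE 0.244, adjusted p = 0.00718). These 4 wells passed after median polish too. The protein kinase A subunits PRKACA, PRKACB and PRKACG, which act on SIKs, were at -0.44, 0.12 and 0.065 (adjusted p = 0.15, 0.542 and 0.785). Relative to the library median, 7 of the 16 wells were lower and 4 higher with EPA, and 8 were lower and 5 higher untreated. An AKT1 well was lowest in both, at -1.30 with EPA and -1.46 untreated.

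Of 12 other near relatives in the kinase tree, 11 had a well. In EPA-treated minus untreated 3 were lower and 1 higher, with a median of 0.049. TSSK6 and TSSK1B, testis-specific kinases, were lower at -1.30 (SE 0.191, adjusted p = 0.000978) and -0.87 (SE 0.207, adjusted p = 0.00821), and NIM1K at -0.85 (adjusted p = 0.0329). All 3 passed after median polish. CHEK1, a DNA damage checkpoint kinase, was higher at 0.62 (adjusted p = 0.00336) in an edge well, with signals near the blank level in both groups (4451 ± 136 units with EPA and 4657 ± 463 units untreated). After median polish CHEK1 was at 0.16 and did not pass (adjusted p = 0.641), and after blank subtraction 0 of the 11 were higher. MELK, a relative that LKB1 does not activate, sat in row 7 of plate 2 beside BRSK1 and was at 0.048 (adjusted p = 0.825). Relative to the library median, 5 of the 11 were lower and 2 higher with EPA, and 3 were lower and 1 higher untreated. CHEK1 was lowest in each, at -1.75 with EPA and -2.38 untreated.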

How the data were processed

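The deposited values are raw fluorescence intensity for each well in each of 6 columns, per the file headers. Whether the authors corrected for blanks or position is not given in the sources used here. Columns are headed untreated (replicates 1 to 3) and treated (replicates 4 to 6), numbered through both groups, so a column was assigned to a group and not to a numbered sample. The table held 1152 wells on 3 plates of 16 rows and 24 columns, with 939 library wells. Each plate had 16 blank, 24 cells-alone, 16 OTP3 and 8 TOX wells, and 21 wells without siRNA were left out. Gene symbols were updated by locus identifier through RefSeq (GRCh38.p14), which matched 933 library wells.

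The log2 ratio of each intensity to the library median of its plate and sample was taken, without a pseudocount. limma 3.58.1 in R 4.3.3 (trend and robust options) fitted a mean per group to all library wells and tested 3 contrasts, two-sided, with Benjamini-Hochberg adjustment at 0.05. The fit was tested on simulated data. Percent signal left is the EPA mean over the untreated mean, with its SE by error propagation. Every member was named. From each related list, members past the threshold in EPA-treated minus untreated were named (at most 4 per direction), with at most 2 examples from each other contrast; STK11, CAMKK1, TAOK1, TAOK3, the protein kinase A subunits and MELK were named outside that rule, after their values were seen. The members and lists were chosen with earlier results of these data known. The number of samples, 3 per group, and the blank level limit the precision.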

Additional observations from a re-analysis of the deposited data

How the results depend on the processing

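No paired analysis was possible because the deposited columns are numbered 1 to 6 through both groups and carry no number shared between them. Leaving out the trend and robust options changed no call of a member, and the cause of the changes below was not tested. In EPA-treated minus untreated, no setting called a member lower. The 5 higher calls became 11 with OTP3 centring and with cells-alone centring, 1 with median polish, 2 with blank subtraction and median polish together, 3 with quantile normalization, 1 at an adjusted p under 0.01 and 1 with differences centred on the median siRNA, and 3 to 5 without 1 replicate. The untreated 7 lower and 4 higher calls became 12 and 0 with OTP3 or cells-alone centring, and 1 lower with median polish, alone or with blank subtraction; they were 5 to 7 lower and 4 higher without 1 replicate. With EPA, 2 lower and 5 higher calls became 9 and 3 with OTP3 centring and 6 and 3 with cells-alone centring. With the low-signal filter, which removed SIK2, 1 was lower. Of all library wells with EPA, OTP3 centring gave 64.7% lower and 13.5% higher, and cells-alone centring 64.6% and 14.2%. Untreated, 91.8% were lower with OTP3 centring and 93.3% with cells-alone centring. Median polish gave 27.6% lower untreated, and 23.3% with blank subtraction too. Without 1 untreated replicate, 30.9% to 32.4% were lower untreated and 29.8% to 30.4% higher. The low-signal filter left 31.0% lower with EPA.

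Signs changed as follows. In EPA-treated minus untreated, SNRK was at 0.083 with OTP3 centring and 0.28 with cells-alone centring. SIK2 was at -1.39 after blank subtraction, -0.17 after median polish, -1.27 with both, -0.049 with quantile normalization and -0.22 with centred differences, and between -0.16 and 0.28 without 1 replicate. Median polish put HUNK at -0.082 and MARK1 at -0.17, and both corrections put HUNK at -0.16, MARK1 at -0.20 and MARK3 at -0.057. Quantile normalization put NUAK1 at -0.10 and BRSK2 at -0.027. Untreated, OTP3 centring put NUAK1 at -0.23, HUNK at -0.53, MARK1 at -0.68, SIK1 at -0.98, SNRK at -0.99 and BRSK2 at -0.20, and cells-alone centring put them at -0.23, -0.53, -0.70, -1.11, -1.12 and -0.33. Median polish put untreated HUNK at -0.27, MARK1 at -0.068, SIK3 at 0.091, MARK3 at 0.010, BRSK1 at 0.36 and NUAK2 at 0.15, and with blank subtraction too they were at -0.33, -0.070, 0.13, 0.041, 0.42 and 0.28. With EPA, OTP3 centring put MARK2 at -0.41, BRSK1 at -0.42, NUAK2 at -0.63 and SIK1 at -0.32, and cells-alone centring put them at -0.39, -0.40, -0.57 and -0.25. Median polish put HUNK with EPA at -0.35, MARK1 at -0.24, SIK3 at 0.14, MARK3 at 0.015 and SNRK at 0.14, and both corrections put HUNK at -0.48, MARK1 at -0.28, SIK3 at 0.20 and SNRK at 0.32. Without edge wells SIK3 was at 0.067, MARK3 at 0.11 and SNRK at 0.024. Without 1 EPA replicate SNRK ran from -0.24 to 0.072 and MARK3 from -0.22 to 0.080.

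For the related lists, OTP3 centring gave LKB1 and AMPK 0 lower and 3 higher in EPA-treated minus untreated and 8 and 0 untreated. Median polish gave that list 2 and 0 untreated and 1 higher with EPA. For kinases reported to act on SIK or MARK, OTP3 centring gave 1 and 7 in EPA-treated minus untreated, 14 and 0 untreated and 11 and 0 with EPA. Median polish gave that list 2 higher in the difference and 4 lower untreated. For other near relatives, OTP3 centring gave 1 and 7, 11 and 0, and 9 and 0 in those 3 comparisons, and median polish gave 0 higher in the difference, 3 higher untreated and 1 higher with EPA. Of all library wells, OTP3 centring gave 6.28% lower and 58.1% higher in the difference, 91.8% and 0.53% untreated, and 64.7% and 13.5% with EPA. The shares with median polish were 14.8% and 16.3%, 27.6% and 26.5%, and 30.4% and 30.6% in those 3 comparisons. After blank subtraction 50.4% of the library median signal was left with EPA.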
